A study of Mus musculus with 75 samples.

Results

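The interstitial collagens were followed as 10 genes of the mouse kidney: Col1a1, Col1a2, Col3a1, Col5a1, Col5a2, Col6a1, Col6a2, Col6a3, Col15a1 and Col18a1. They were taken by symbol from a table of raw counts that lists 32245 genes, and all 10 were present. The libraries were bulk RNA-seq of whole kidney, 75 in all, made 3 days after unilateral ureter obstruction (UUO), in which the ureter of 1 kidney is tied off and the contralateral (CL) kidney serves as control. There were 3 arms, each with UUO and CL kidneys of a control and of a treated or deleted genotype. In the ABTAA arm, C57BL6/J mice or WT mice of the colony received human IgG Fc (IgG, 8 CL and 8 UUO libraries) or ABTAA, an antibody that binds ANGPT2 and activates the endothelial receptor TIE2 (ABT, 7 CL and 7 UUO). In the Veptp arm, floxed Veptp was deleted with a tamoxifen-inducible Cdh5-CreERT2, which is active in endothelial cells (VeKO, 6 CL and 8 UUO), and controls were Veptp wt/lox mice that carried the same Cre but were not induced (VeWT, 7 CL and 8 UUO, which is 1 UUO library more than the VeWT mice described), so tamoxifen was given to 1 side of this comparison only. Veptp is listed under its gene symbol Ptprb. In the Pdgfb arm, floxed Pdgfb was deleted in the whole body with a tamoxifen-inducible Actb-CreERT2 (PbKO, 4 CL and 4 UUO), with Cre-negative wt/lox or lox/lox controls (PbWT, 4 CL and 4 UUO). The PbWT CL group includes kidneys of sham-operated mice that the labels do not mark. Mice were adults of both sexes. Those of the Veptp and Pdgfb arms were on a mixed background, as were the WT colony mice of the ABTAA arm, which the labels do not mark.

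Collagens are secreted as triple helices of 3 chains, and the chains of a type are encoded by separate genes. Type I (2 chains of Col1a1 and 1 of Col1a2) and type III (Col3a1 alone) form the thick fibrils that accumulate in a fibrotic interstitium. Type V (Col5a1, Col5a2) is built into those fibrils and is needed to start and size them, and type VI (Col6a1, Col6a2, Col6a3) forms beaded filaments beside the fibrils and cell surfaces. Types XV and XVIII (Col15a1, Col18a1) are multiplexins, which carry glycosaminoglycan chains and lie at the border of basement membrane and interstitium, and the end of type XVIII is released as endostatin. In the kidney, fibroblasts and pericytes are the main source of the fibrillar chains, while epithelial and endothelial cells also make type XVIII.

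The genes lie on 6 chromosomes of GRCm38 (mm10) in GENCODE vM21. The annotation places Col1a1 (ENSMUSG00000001506.10) on chromosome 11 from 94936224 to 94953042 on the plus strand, Col1a2 (ENSMUSG00000029661.16) on chromosome 6 from 4504814 to 4541544 on the plus strand and Col3a1 (ENSMUSG00000026043.18) on chromosome 1 from 45311538 to 45349706 on the plus strand. The type V genes are Col5a1 (ENSMUSG00000026837.15) on chromosome 2 from 27886425 to 28039514 on the plus strand and Col5a2 (ENSMUSG00000026042.16) on chromosome 1 from 45374321 to 45503282 on the minus strand. The type VI genes are Col6a1 (ENSMUSG00000001119.7) on chromosome 10 from 76708792 to 76726168 on the minus strand, Col6a2 (ENSMUSG00000020241.13) on chromosome 10 from 76595762 to 76623630 on the minus strand and Col6a3 (ENSMUSG00000048126.16) on chromosome 1 from 90765923 to 90843971 on the minus strand. The multiplexins are Col15a1 (ENSMUSG00000028339.17) on chromosome 4 from 47208161 to 47313167 on the plus strand and Col18a1 (ENSMUSG00000001435.15) on chromosome 10 from 77052178 to 77166548 on the minus strand. Col3a1 and Col5a2 are neighbours on chromosome 1, 24.6 kb apart and on opposite strands, and Col6a2 and Col6a1 lie 85.2 kb apart on chromosome 10.

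Of the 10 genes, 8 had a promoter window in RefSeq (GRCm38.p6), with 10 windows between them, and the 250 bases before the start were searched on both strands for 4 motifs: the CCAAT box, TATAAA, the GC box GGGCGG and the AP-1 type site TGANTCA. No motif contains another. The windows of 3 genes are shown because in IgG mice they stand for the steepest rise after UUO (Col3a1), the lowest level (Col5a1) and the highest level in CL kidneys together with a shallow rise (Col18a1). Col1a1, which had the largest estimate in the other genotypes or treatments, had no window. Motifs are in capitals, in the orientation of the gene.
Col3a1, chr1:45311288-45311537, plus strand: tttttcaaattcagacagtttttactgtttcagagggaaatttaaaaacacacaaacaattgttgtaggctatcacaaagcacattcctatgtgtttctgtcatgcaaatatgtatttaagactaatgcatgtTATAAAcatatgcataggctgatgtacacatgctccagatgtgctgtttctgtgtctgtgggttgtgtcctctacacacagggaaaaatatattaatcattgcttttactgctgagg
Col5a1, chr2:27886175-27886424, plus strand: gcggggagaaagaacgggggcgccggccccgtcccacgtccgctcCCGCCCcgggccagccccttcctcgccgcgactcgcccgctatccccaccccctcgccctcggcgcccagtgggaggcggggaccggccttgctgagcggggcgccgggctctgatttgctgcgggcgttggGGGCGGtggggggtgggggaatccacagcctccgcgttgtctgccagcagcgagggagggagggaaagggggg
Col18a1, chr10:77166531-77166780, minus strand: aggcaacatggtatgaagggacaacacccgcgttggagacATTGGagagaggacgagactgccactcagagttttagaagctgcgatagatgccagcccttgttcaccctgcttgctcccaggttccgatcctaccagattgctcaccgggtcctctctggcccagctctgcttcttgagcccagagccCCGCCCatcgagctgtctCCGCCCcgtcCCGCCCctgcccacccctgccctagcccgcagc
Col3a1 held 1 TATAAA, 117 bases before the start, in no other window of the 10 genes, against 12.4% of all 32851 windows. GGGCGG was present for 4 of the 8 genes (Col1a2, Col5a1, Col6a2, Col18a1) and in 32.7% of all windows, and CCAAT for 2 (Col1a2, Col18a1) and in 33.8%. Col6a2 and Col18a1 had more than 1 window, so these shares of genes and of windows are not like measures. The other window of Col18a1 held none of the motifs. TGANTCA was found for Col6a1 only, against 6.75% of all windows. These matches describe the letters of the windows and no more.

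Library totals ran from 172827 to 2341800 counts (median 757897). Levels are in CPM, counts scaled to a common library total with TMM factors within each arm. Differences are log2 fold changes ± SE from the quasi-likelihood test of edgeR, with p-values adjusted over all genes tested in the arm (Benjamini-Hochberg) and a threshold of 0.05. Several libraries stood apart before any collagen was compared. The names of 30 libraries hold a low bar (_) and those of 45 do not, and each ABTAA and Veptp arm group holds both barred and unbarred names, while the Pdgfb arm is unbarred. In the Veptp arm totals were 960023 to 2341800 in barred and 178137 to 858624 in unbarred libraries. In 24 of 75 libraries, both Xist and Y-linked genes reached 10 counts, which a single mouse does not give, and these included all 4 PbKO UUO libraries. In the Veptp arm the numbers 3, 4, 7 and 8 of barred libraries name a CL kidney of one genotype and a UUO kidney of the other. Each of the 8 numbers of barred Veptp libraries carried the same predominant sex signal in both kidneys, and same-numbered libraries deviated together as much for numbers 3, 4, 7 and 8 (r = 0.128 to 0.426) as for the other 4 (r = 0.0582 to 0.394). The mean r was -0.0333 for libraries of different numbers. A swap of genotype labels cannot be told apart from numbers that do not mark mice, so every VeWT and VeKO value is given by its label. Without these libraries, 9 of the 10 genes were higher in VeWT UUO than CL, 2 in VeKO, and 0 differed between VeKO and VeWT UUO. Over all 11034 genes of that fit 815, 108 and 0 were called in either direction. The deleted genes checked the labels in part. Pdgfb was 10.4 ± 6.72 CPM (SD, n = 4) in PbWT CL and 19.0 ± 3.98 in PbKO CL, and 52.9 ± 6.62 in PbWT UUO against 37.1 ± 3.15 in PbKO UUO (-0.47 ± 0.21, adjusted p = 0.124), so the libraries labelled PbKO did not have less Pdgfb RNA in CL kidneys. Ptprb was 51.2 ± 27.9 CPM in VeWT UUO and 33.3 ± 18.9 in VeKO UUO (SD, n = 8 each; -0.69 ± 0.33, adjusted p = 0.9999). Defining kidney markers (Lrp2, Umod, Aqp2 and 8 others) were all detected in every group. Leaving out the libraries with both sex signals gave counts of higher genes of 10 in IgG, 9 in ABT, 9 in VeWT and 5 in VeKO, and could not be done in the Pdgfb arm. These fits called 2360 and 1634 of all 10012 genes and 1729 and 948 of all 12383 in either direction.

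Per kilobase of exon, Col18a1 was the highest of the 10 genes in CL kidneys of IgG mice (10.7 CPM per kb), ahead of Col3a1 (5.02) and Col1a2 (4.63). Col6a2 (0.630) and Col5a1 (0.434) were the lowest. In UUO kidneys the order per kilobase was led by Col3a1 (64.0 CPM per kb), followed by Col1a2 (31.4), Col18a1 (26.4) and Col1a1 (25.8). The other 6 genes stayed at or under 7.81 CPM per kb. A gene had no count in 12 of the 750 gene and library pairs, and these zeros fell on Col5a1 (4 libraries), Col6a2 (3), Col15a1 (3) and Col6a1 (2). The values for every library are shown in the plot of the 10 genes by group.

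Set in order of their means, the 6 UUO groups gave 629 ± 109 (IgG), 537 ± 192 (VeWT), 489 ± 80.8 (PbWT), 474 ± 114 (ABT), 257 ± 123 (PbKO) and 242 ± 109.7 (VeKO) CPM of Col3a1 (SD). Neighbours in this order lay within the larger of their SDs, except between ABT and PbKO. The CL groups gave 80.3 ± 111 (VeKO), 59.0 ± 27.3 (PbWT), 56.2 ± 29.7 (VeWT), 54.3 ± 14.4 (PbKO), 49.3 ± 13.8 (IgG) and 42.0 ± 13.9 (ABT) CPM, where the high SD of VeKO CL came from replicate 2. For Col1a1, the UUO groups gave 270.0 ± 98.1 (VeWT), 169 ± 44.9 (IgG), 148 ± 87.1 (VeKO), 147 ± 26.7 (PbWT), 123 ± 24.5 (ABT) and 76.0 ± 44.9 (PbKO) CPM, with neighbours within the larger of their SDs, except between VeWT and IgG and between ABT and PbKO. For Col18a1, they gave 325 ± 122 (VeWT), 284 ± 149 (VeKO), 231 ± 22.8 (PbWT), 185 ± 46.0 (IgG), 169.7 ± 20.1 (ABT) and 154 ± 12.5 (PbKO) CPM, with neighbours within the larger of their SDs. Arms were scaled separately, so the order across arms is a description only.

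**Figure D1:**
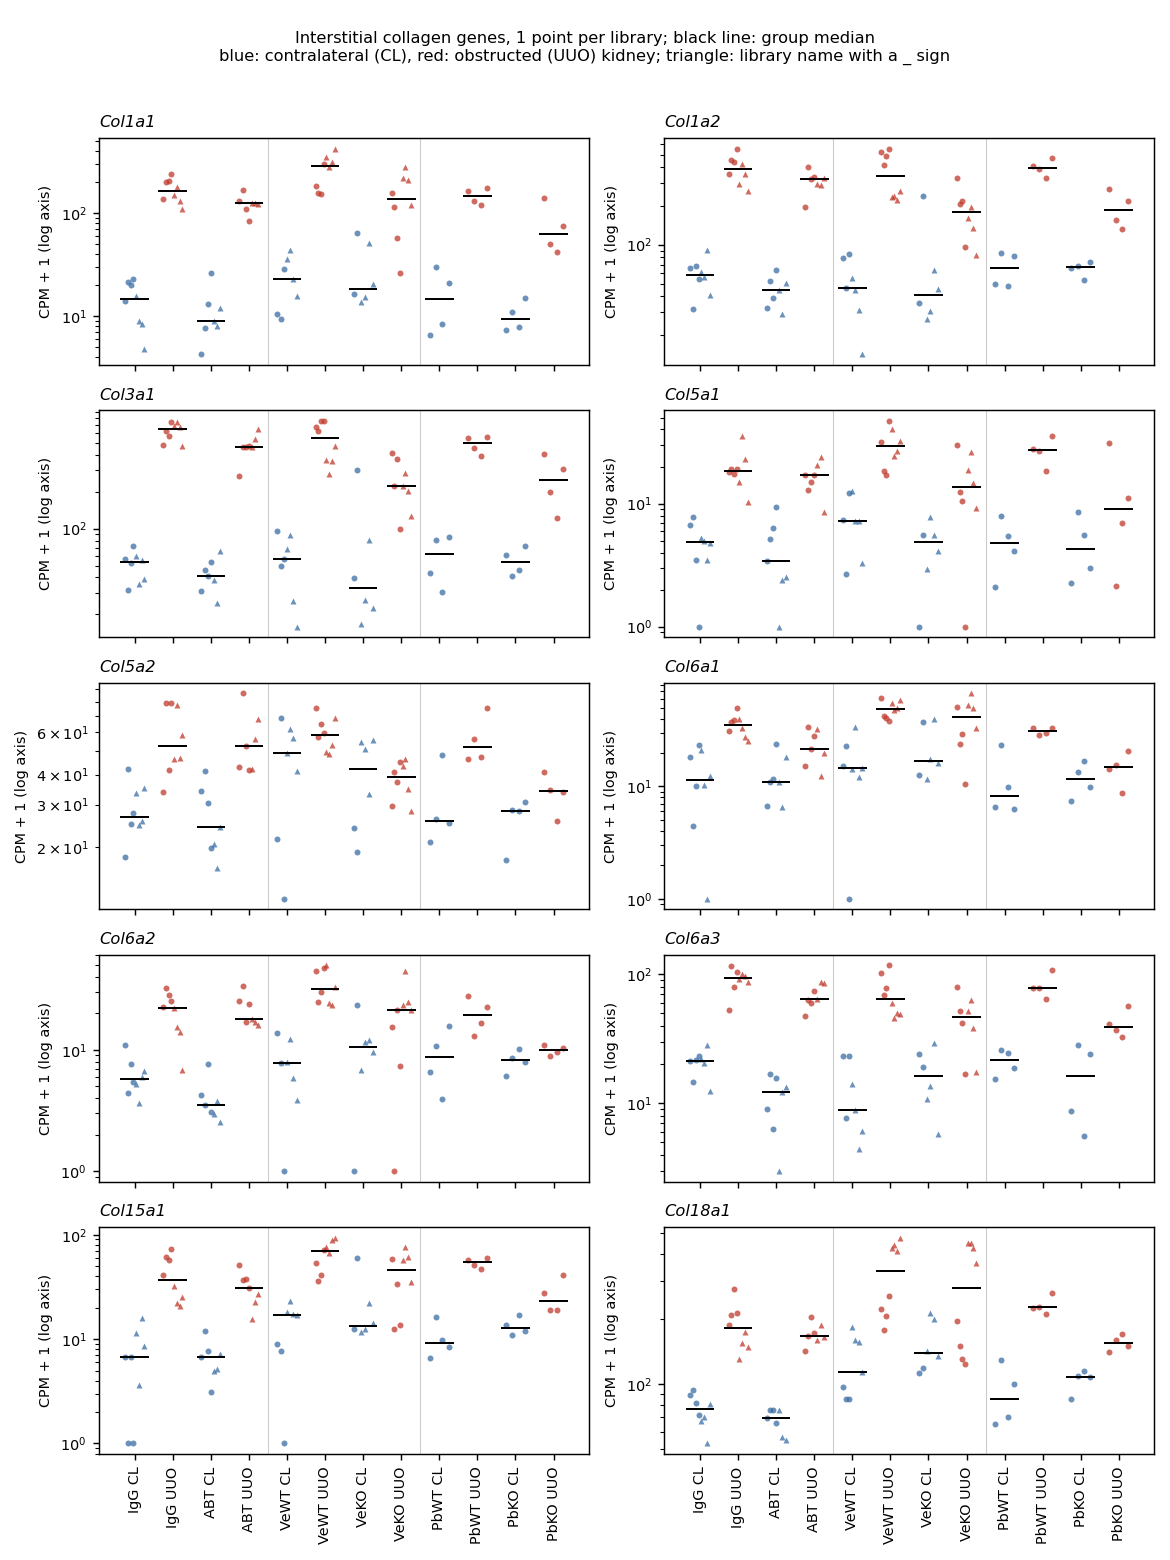
Level of each interstitial collagen gene in every library (y axis, CPM + 1 on a log axis) for the 12 groups (x axis), with the group median as a black line and triangles for barred library names. Red UUO points lie above blue CL points in the control groups for most genes, Col5a2 overlaps in IgG, VeWT and PbWT, and the PbKO UUO points sit under the PbWT UUO points without overlap for 7 of the 10 genes.

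The first question was what obstruction did to each collagen in IgG-treated mice. All 10 genes rose in IgG UUO kidneys over IgG CL kidneys, where 16% of all genes tested rose, and for 8 of the 10 no UUO library overlapped a CL library, as for 4.28% of all genes in this direction. Log2 fold changes ran from 1.02 to 3.67, with a median of 2.22 against 0.01 over all genes. Because this was whole tissue, more collagen-producing cells and more RNA per cell cannot be told apart. Fibroblast markers other than collagens, 12 genes among which are Pdgfrb, Dcn and Acta2, summed to 168 to 293 CPM in CL and 507 to 817 CPM in UUO libraries. Kidney epithelial markers summed to 9775 to 12864 and 4413 to 7088 CPM, endothelial markers to 246 to 454 and 271 to 539.9 CPM, and fat markers to 26.3 to 164 and 69.0 to 625 CPM. Myeloid markers (Adgre1, Cd68, Csf1r, C1qa, S100a8 and S100a9, a list drawn up after the values were seen) summed to 66.6 to 93.2 and 126 to 204 CPM. The fibroblast, kidney and myeloid sums did not overlap between CL and UUO, and their part in the rise was not tested.

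Types I and III had the 3 largest estimates, and no test compared genes with each other. Col3a1 ranged from 30.8 to 71.0 CPM (median 52.8) in IgG CL and from 475 to 748 CPM (median 655) in IgG UUO libraries (3.67 ± 0.19, adjusted p = 1.65e-16). Col1a1 ranged from 3.81 to 22.2 CPM (median 13.8) in CL and from 109 to 241 CPM (median 165) in UUO (3.65 ± 0.26, adjusted p = 5.37e-13). Col1a2, the second chain of type I, started higher, from 30.8 to 89.2 CPM (median 57.6), and reached levels from 258 to 555 CPM (median 385) (2.73 ± 0.19, adjusted p = 1.28e-13). For each of these genes the lowest UUO library was above the highest CL library.

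Both chains of type V rose. Col5a1 ranged from 0 to 6.84 CPM (median 3.87) in CL and from 9.35 to 34.4 CPM (median 17.5) in UUO (2.27 ± 0.36, adjusted p = 3.74e-06), on 0 to 4 counts a library in CL. Col5a2 ranged from 17.2 to 41.1 CPM (median 25.7) in CL and from 33.0 to 78.5 CPM (median 51.7) in UUO (1.02 ± 0.22, adjusted p = 3.44e-04), and the groups overlapped. Col5a2 had the smallest estimate of the 10 genes and its neighbour on the chromosome, Col3a1, the largest.

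All 3 chains of type VI rose. Col6a3, the longest chain, ranged from 11.4 to 27.3 CPM (median 20.3) in CL and from 51.8 to 115 CPM (median 93.5) in UUO (2.17 ± 0.21, adjusted p = 6.81e-10), with no overlap. For Col6a2 the libraries ranged from 2.63 to 10.0 CPM (median 4.70) in CL and from 5.85 to 31.3 CPM (median 21.3) in UUO (1.73 ± 0.31, adjusted p = 2.51e-05), with 1 UUO library among the CL values. Col6a1 ranged from 0 to 22.2 CPM (median 10.3) and from 24.6 to 48.3 CPM (median 34.1) (1.46 ± 0.31, adjusted p = 3.44e-04). Among the multiplexins, Col15a1 ranged from 0 to 14.9 CPM (median 5.75) in CL and from 19.7 to 72.4 CPM (median 35.9) in UUO (2.53 ± 0.36, adjusted p = 8.58e-07). Its estimate was 3.63 in unbarred libraries (adjusted p = 4.84e-07) and 1.45 in barred ones (adjusted p = 0.00542), a difference that was not tested. Col18a1 was already 52.0 to 92.4 CPM (median 75.5) in CL and was 129 to 274 CPM (median 179.8) in UUO (1.30 ± 0.14, adjusted p = 4.96e-09).

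The same comparison in ABTAA-treated mice also called all 10 genes higher in UUO, against 12.7% of all genes, with log2 fold changes from 0.97 (Col6a1) to 3.67 (Col1a1). Within unbarred ABT libraries 7 of the 9 genes tested were called, and within barred ones 9 of 10. Over all genes these fits called 1031 of 8898 and 2426 of 10076 in either direction. Col3a1 ranged from 23.8 to 65.2 CPM (median 40.2) in ABT CL and from 271 to 649.9 CPM (median 466) in ABT UUO (3.50 ± 0.20, adjusted p = 4.70e-15). Col6a3 ranged from 1.97 to 15.9 CPM (median 11.2) in CL and from 46.1 to 85.8 CPM (median 63.1) in UUO (2.71 ± 0.23, adjusted p = 6.30e-11). Libraries of the ABT groups overlapped for Col5a1 and Col6a1 and not for the other 8, against 3.99% of all genes without overlap, and Col6a1 had the weakest call (0.97 ± 0.33, adjusted p = 0.0266). On the 6 ABT libraries that share the numbers 9, 11 and 12 across CL and UUO, which deviated together, the replicate block called 8 of the 9 genes tested and not Col6a1 (0.91, adjusted p = 0.110 by edgeR), and called 2842 of all 9056 genes in either direction. Thinning every library to the shallowest of the arm left 6 of the genes tested, of which 6 were called in IgG and 5 in ABT mice, with 854 and 412 of all 5028 genes called in either direction.

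In the Veptp arm, 9 of the 10 genes rose in VeWT UUO over VeWT CL kidneys, where 10% of all genes rose. The exception was Col5a2 (0.37 ± 0.24, adjusted p = 0.323), which ranged from 11.2 to 67.4 CPM (median 48.1) in CL and from 47.8 to 74.2 CPM (median 57.2) in UUO. Col1a1 ranged from 8.43 to 43.1 CPM (median 22.0) in CL and from 154 to 426 CPM (median 289) in UUO (3.53 ± 0.44, adjusted p = 1.78e-06). Col6a3 ranged from 3.44 to 22.4 CPM (median 7.83) and from 44.9 to 117 CPM (median 63.6) (2.76 ± 0.40, adjusted p = 1.25e-05). For 8 of the 10 genes the VeWT groups did not overlap, as for 3.26% of all genes, Col5a2 and Col18a1 being the exceptions.

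In VeKO mice 4 of the 10 genes rose, against 4.47% of all genes: Col1a1 (2.42 ± 0.46, adjusted p = 0.00103), Col3a1 (1.69 ± 0.52, adjusted p = 0.0382), Col5a1 (1.87 ± 0.47, adjusted p = 0.00879) and Col6a3 (1.47 ± 0.41, adjusted p = 0.0224). Col1a2 was just outside the threshold (1.35 ± 0.44, adjusted p = 0.0516), and Col5a2 had an estimate below 0 (-0.10 ± 0.26, adjusted p = 0.893). The VeKO groups overlapped for all 10 genes, while 0.697% of all genes were without overlap, and 1 library weighed on this for Col1a2 and Col3a1. VeKO CL replicate 2 had 303 CPM of Col3a1 and 239 CPM of Col1a2, while the other 5 VeKO CL libraries had at most 79.1 and 62.5 CPM. Without it the VeKO groups did not overlap for these genes and still overlapped for the other 8. It was singled out for its high values of these same genes, and the share of all genes without overlap was not counted without it. That library also had 244 CPM of Havcr1, a gene that injured tubules switch on, named here after its values were seen, against 4.60 to 15.4 CPM in the other 5. It was shallow, with 278084 counts, and is one of the libraries with both sex signals (52 counts of Xist and 37 of Y-linked genes).

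The VeKO count moved with the libraries in the fit. It was 7 without VeKO CL replicate 2, 8 without VeKO UUO replicate 4, which had the fewest Col1a1 counts of its group, and 2 without VeKO CL replicate 3, 4 or 6 or without VeKO UUO replicate 6. Over all genes these fits called 1232, 1099 and 679 to 736 in either direction, against 947 with every library. With barred or unbarred form as a covariate it was 9, all but Col5a2. Within barred libraries it was 9, and within unbarred libraries, 2 CL against 4 UUO, it was 0. The calls over all genes moved likewise, from 947 of 11916 to 2560 of 11916 with the covariate, 2680 of 12556 in barred and 0 of 7778 in unbarred libraries. Col1a2 showed the split plainly. In barred libraries it was 25.3, 29.8, 62.5 and 44.2 CPM in VeKO CL and 161, 193, 134 and 82.6 CPM in VeKO UUO, with no overlap. In unbarred libraries it was 34.6 and 239 CPM in CL and 329.5, 206, 217 and 94.5 CPM in UUO.

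In the Pdgfb arm, all 10 genes rose in PbWT UUO over PbWT CL kidneys, against 17.9% of all genes, with log2 fold changes from 0.94 (Col5a2) to 3.24 (Col1a1). The PbWT groups did not overlap for 8 of the 10, all but Col5a2 and Col6a2, and for 16.9% of all genes. Col1a1 was 5.54, 29.3, 7.38 and 19.9 CPM in CL and 164, 131, 119 and 175 CPM in UUO (3.24 ± 0.34, adjusted p = 4.40e-08). In the libraries labelled PbKO 6 genes rose, against 3.94% of all genes: Col1a1 (2.78 ± 0.42, adjusted p = 1.39e-04), Col1a2 (1.53 ± 0.22, adjusted p = 6.67e-05), Col3a1 (2.13 ± 0.31, adjusted p = 8.01e-05), Col6a3 (1.37 ± 0.33, adjusted p = 0.0127), Col15a1 (1.08 ± 0.32, adjusted p = 0.0431) and Col18a1 (0.60 ± 0.17, adjusted p = 0.0357). These 6 were also the genes whose PbKO groups did not overlap, as for 6.2% of all genes. Both type V chains, Col6a1 and Col6a2 were not called, and their log2 fold changes were 1.42 (Col5a1), 0.33 (Col5a2), 0.47 (Col6a1) and 0.35 (Col6a2). The PbKO count was 3 without PbKO UUO replicate 4 and 3 when all 12 groups were fitted together, where 339 and 129 genes were called in all, against 692.

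**Figure D2:**
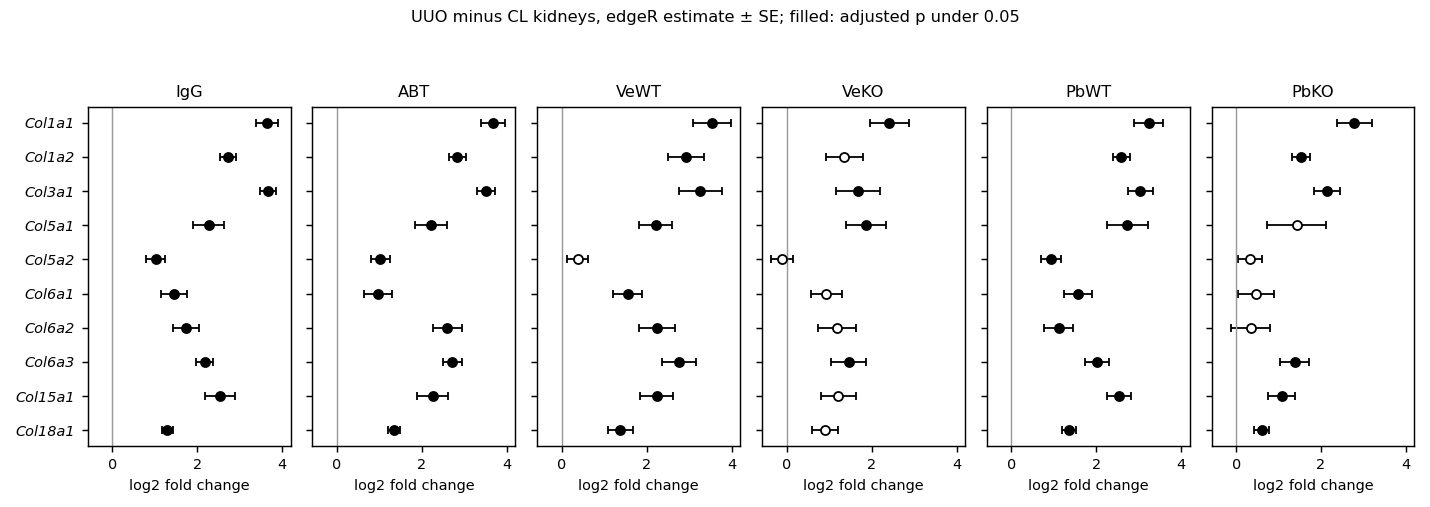
Log2 fold change of each gene (rows) in UUO minus CL kidneys (x axis) for the 6 genotypes or treatments (panels), with bars of 1 SE and filled points for adjusted p under 0.05. All points are filled for IgG, ABT and PbWT, 9 for VeWT, 6 for PbKO and 4 for VeKO, and Col1a1 or Col3a1 has the largest value in each panel.

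The next question was whether obstructed kidneys of treated or deleted mice differed from those of their controls. After ABTAA, 0 of the 10 genes were called lower than in IgG UUO kidneys, where 0% of all 9579 genes were (344 genes at an unadjusted p under 0.05, and DESeq2 and the edgeR exact test also called none of the 10). For 9 of the 10 genes the estimate was below 0, from -0.58 to -0.05, and Col6a2 was at 0.07. Col3a1 (-0.40 ± 0.17, adjusted p = 0.9992) and Col6a3 (-0.39 ± 0.19, adjusted p = 0.9992) were the genes among the 344. Col3a1 ranged from 475 to 748 CPM (median 655) in IgG UUO and from 271 to 649.9 CPM (median 466) in ABT UUO, with 5 of the 7 ABT libraries below every IgG library and the other two among them. The groups overlapped for all 10 genes. The estimates moved with the form of library name: their median was -0.53 in unbarred libraries, where 9 genes were tested, and -0.20 in barred ones. Col18a1 was -0.38 in unbarred and 0.17 in barred libraries, and Col6a2 -0.21 and 0.38, none of them called.

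In VeKO UUO kidneys all 10 estimates were below those of VeWT UUO, from -1.15 (Col3a1) to -0.18 (Col18a1), with a median of -0.67 against 0.01 over all genes. None passed the test (0% of all 11916 genes were called lower, 424 differed at an unadjusted p under 0.05, and DESeq2 and the exact test called none of the 10). The smallest unadjusted p among the 10 genes was 0.00702 by edgeR, and 6 genes had one under 0.05: Col1a1, Col1a2, Col3a1, Col5a1, Col5a2 and Col6a3. Col5a2 was the gene without overlap, against 0.0168% of all genes, from 47.8 to 74.2 CPM (median 57.2) in VeWT and from 27.3 to 45.5 CPM (median 38.1) in VeKO (-0.64 ± 0.24, adjusted p = 0.9999). Within barred and within unbarred libraries all 10 estimates were again below 0. Col1a2 was 235, 239, 221 and 261 CPM in VeWT against 161, 193, 134 and 82.6 CPM in VeKO among barred libraries. Among unbarred libraries it was 524, 415, 483 and 552 against 329.5, 206, 217 and 94.5 CPM. In each form the genotypes did not overlap for Col1a2, which was not counted over all genes. With the form as covariate the lowest adjusted p of the 10 genes was 0.204 by edgeR. The estimates turned with the numbers of the libraries. With barred numbers as a replicate block, this contrast rested on all of the numbers together, 3, 4, 7 and 8 among them. Col1a1 (0.34), Col1a2 (0.26), Col3a1 (0.72) and Col6a3 (0.44) were then above 0, none of them called. Without numbers 3, 4, 7 and 8 and without the block, the same 4 genes were from -1.19 (Col3a1) to -0.63 (Col6a3). Endothelial markers summed to 279 to 443 CPM in VeWT and 178 to 371 in VeKO UUO, and fibroblast markers to 481 to 829 and 284 to 673 CPM, and their part was not tested.

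In the libraries labelled PbKO UUO all 10 genes were lower than in PbWT UUO, against 6.58% of all genes, and for 7 of the 10 no library overlapped, as for 9.58% of all genes in this direction. Col1a2 was 408, 383, 326 and 465 CPM in PbWT UUO and 267, 155, 131 and 217 CPM in PbKO UUO (-1.08 ± 0.19, adjusted p = 2.18e-04). Col15a1 was 56.5, 50.0, 45.6 and 58.8 CPM against 26.7, 17.9, 17.9 and 39.8 CPM (-1.01 ± 0.23, adjusted p = 0.00308), and Col6a3 was 77.8, 78.0, 63.5 and 108 CPM against 40.0, 35.9, 31.6 and 55.5 CPM (-0.97 ± 0.25, adjusted p = 0.00668). All PbKO libraries were under all PbWT libraries for these 3 genes.

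The largest estimate belonged to Col5a1 (-1.56 ± 0.40, adjusted p = 0.00758), with 27.0, 25.6, 17.5 and 34.3 CPM in PbWT and 30.0, 1.12, 5.98 and 10.2 CPM in PbKO, so 1 PbKO library lay within the PbWT range. The smallest was that of Col18a1 (-0.57 ± 0.16, adjusted p = 0.0130), 224, 227, 210.2 and 264 CPM against 140.1, 159, 169 and 149 CPM. Col3a1 was 548, 452, 393 and 563 CPM against 404, 198, 122 and 304 CPM (-0.97 ± 0.26, adjusted p = 0.0103), with 1 PbKO library in the PbWT range, as for Col1a1. The remaining estimates were -1.10 (Col1a1), -0.79 (Col5a2), -1.09 (Col6a1) and -1.07 (Col6a2).

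Other features of the PbKO UUO libraries moved with this. Kidney epithelial markers summed to 3434 to 4274 CPM in PbWT UUO and 6081 to 9181 in PbKO UUO, and fibroblast markers to 609 to 815 and 308 to 523 CPM, with all 11 and all 12 genes detected in each group. Endothelial markers summed to 299 to 395 and 201 to 313 CPM and the 6 myeloid markers to 146 to 190.1 and 89.7 to 123 CPM. Fat markers, which bear on fat left on the kidney, summed to 101 CPM in each PbWT UUO library and 28.0 to 379.7 CPM in PbKO UUO. Over all genes 1315 were higher and 719 lower in PbKO UUO. All 4 PbKO UUO libraries carried both sex signals, as did 2 of the 4 PbWT UUO libraries, so the comparison cannot be made without them, and the part of these features in the result was not tested. The count of lower genes was 5 without PbKO UUO replicate 3, 7 by DESeq2, 4 of 6 tested after thinning, and 0 in 1 fit of all 12 groups, which has its own scaling, filter and spread. Over all genes these fits called 1484, 1610, 589 and 321 in either direction, against 2034.

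**Figure D3:**
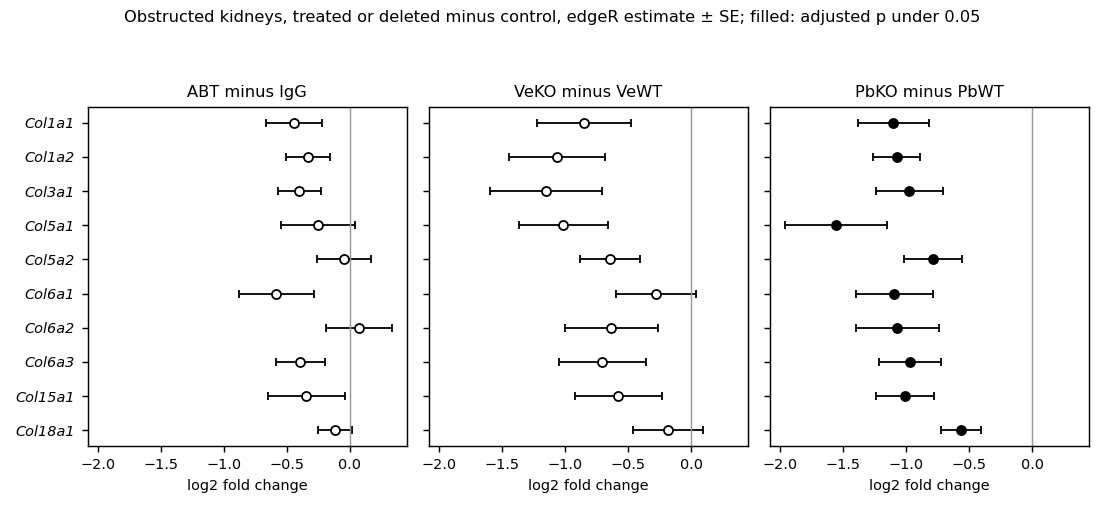
Log2 fold change of each gene (rows) in obstructed kidneys of treated or deleted minus control mice (x axis) in the 3 arms (panels), with bars of 1 SE and filled points for adjusted p under 0.05. All 10 points are filled and below 0 in the Pdgfb panel, and none is filled in the ABTAA and Veptp panels, where 9 and 10 points lie below 0.

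In CL kidneys 0 of the 10 genes differed between treated or deleted mice and controls in any arm, and 0% of all genes did (311, 229 and 378 genes at an unadjusted p under 0.05 in the ABTAA, Veptp and Pdgfb arms, with 3, 0 and 0 of the 10 among them, and none called by DESeq2 or the exact test). The 3 genes of the ABTAA arm were Col6a3, Col1a2 and Col6a2, all lower in ABT CL. Col6a3 ranged from 11.4 to 27.3 CPM (median 20.3) in IgG CL and from 1.97 to 15.9 CPM (median 11.2) in ABT CL (-0.93 ± 0.25, unadjusted p = 6.42e-04 by edgeR, adjusted p = 1). Libraries of these groups overlapped.

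The difference between the UUO response of treated or deleted mice and that of controls was tested as an interaction. For ABT minus IgG and VeKO minus VeWT 0 of the 10 genes were called, with 0% of all genes lower (323 and 324 genes at an unadjusted p under 0.05, and none of the 10 called by DESeq2). All 10 estimates of the Veptp arm were negative, from -1.57 to -0.34, and 5 of the 10 in the ABTAA arm were. For PbKO minus PbWT 3 genes were called, against 1.9% of all genes: Col1a2 (-1.06 ± 0.30, adjusted p = 0.0249), Col15a1 (-1.45 ± 0.45, adjusted p = 0.0465) and Col18a1 (-0.75 ± 0.24, adjusted p = 0.0483). All 10 estimates were negative. The count was 0 when all 12 groups were fitted together (22 of all genes called, against 935) or after thinning (208), 2 by DESeq2, and 0 to 4 when single libraries were left out. It was 0 without PbWT CL replicate 3, PbKO CL replicate 4, PbWT UUO replicate 4, or PbKO UUO replicate 2 or 3. Of the 16 single omissions 12 gave 0 or 1.

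The make-up of the collagen transcripts differed between CL and UUO kidneys as well as their amount, and is given as a description with no test. The 10 genes together took 0.0251% ± 0.00363 (SD, n = 8) of all counts in IgG CL and 0.174% ± 0.0250 in IgG UUO libraries. Of the counts of the 10 genes, Col1a1, Col1a2 and Col3a1 held 33.8% to 54.5% (median 45.3%) in IgG CL and 69.6% to 75.8% (median 72.7%) in IgG UUO. For ABT the range was 33.8% to 51.9% (median 39.4%) in CL and 64.1% to 74.2% (median 70.6%) in UUO. In PbWT it was 33.7% to 52.1% (median 45.4%) and 66.2% to 69.6% (median 67.0%), and in PbKO 35.4% to 49.5% (median 41.3%) and 52.5% to 73.0% (median 62.5%). In these 4 treatments or genotypes every UUO library was above every CL library. In the Veptp arm the ranges overlapped: VeWT had 18.1% to 56.6% (median 34.9%) in CL and 53.6% to 74.9% (median 64.7%) in UUO, and VeKO had 17.8% to 68.7% (median 29.8%) and 39.6% to 68.3% (median 50.3%). The highest VeKO CL value came from replicate 2.

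**Figure D4:**
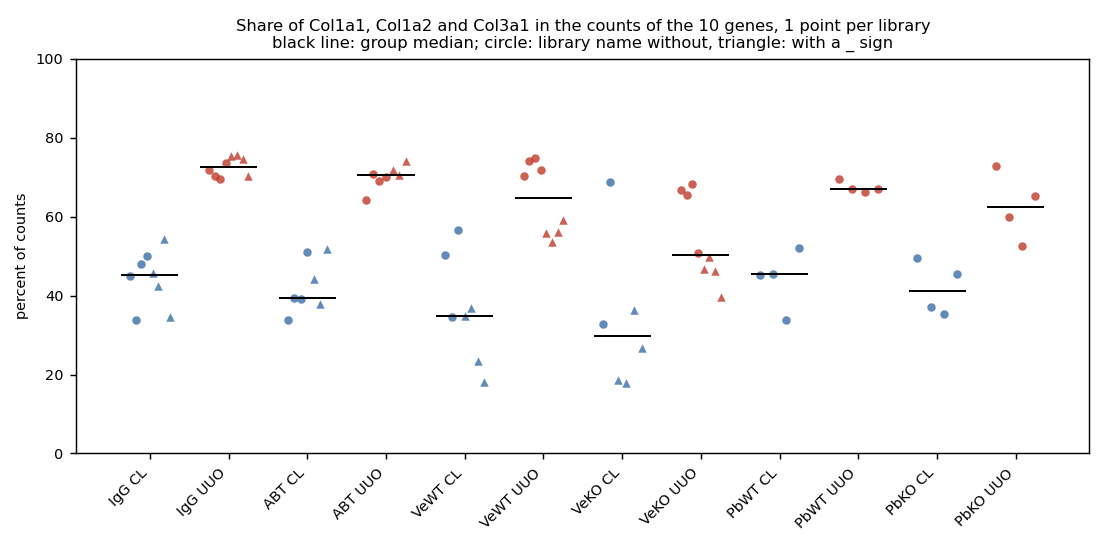
Share of Col1a1, Col1a2 and Col3a1 in the summed counts of the 10 genes (y axis, percent) in every library of the 12 groups (x axis), with the group median as a black line. UUO libraries lie above CL libraries without overlap in the ABTAA and Pdgfb arms, with medians of 45.3% and 72.7% for IgG, and the Veptp groups overlap.

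Whether chains of 1 type kept their ratio was asked library by library. The ratio of counts was taken in each library as log2 of chain over chain, with 1 count added to each, for 4 pairs of chains, and groups were compared by exact two-sided permutation tests, 36 in all with Benjamini-Hochberg adjustment. Of these, 2 passed, both in ABT UUO against ABT CL and both involving Col6a1. The log2 ratio of Col6a3 to Col6a1 was -0.21 ± 0.89 in CL and 1.59 ± 0.66 in UUO (SD, n = 7 each; exact permutation p = 5.83e-04, adjusted 0.0210). That of Col6a1 to Col6a2 was 1.49 ± 0.87 in CL and 0.08 ± 0.52 in UUO (exact permutation p = 0.00233, adjusted 0.0420). Leaving out 1 library left 1 of the 2 without ABT CL replicate 2, 4, 5 or 7 or ABT UUO replicate 2, 3 or 4, and 0 without ABT UUO replicate 1, 6 or 7. These rest on few counts in CL, 4 to 12 of Col6a1, 1 to 5 of Col6a2 and 1 to 19 of Col6a3 a library, so a change of a few counts moves each ratio. With at least 10 counts of each chain required, the ABT comparison could not be made, and of the 19 tests left none passed.

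For type I, the log2 ratio of Col1a1 to Col1a2 was higher in UUO than in CL in all 6 genotypes or treatments, by 0.62 to 1.18. Adjusted p ran from 0.114 to 0.521 by exact permutation, so none passed. In VeWT the difference was -0.20 when at least 10 counts of each chain were required. That filter left barred libraries alone in VeWT CL and both forms in VeWT UUO. Within barred VeWT libraries the mean log2 ratio was -0.23 in CL and 0.50 in UUO, and within unbarred ones -2.16 and -1.36. With 4 against 4 libraries the smallest possible p is 0.0286. When libraries were permuted within the barred and unbarred forms, 24 tests were possible and 5 passed. They were the 2 ABT ratios above, Col5a1 over Col5a2 in IgG UUO minus CL (difference 0.91, exact permutation adjusted p = 0.0392), Col6a1 over Col6a2 in ABT UUO minus IgG UUO (difference -0.70, exact permutation adjusted p = 0.0294) and Col1a1 over Col1a2 in VeWT (difference 0.76, exact permutation adjusted p = 0.0229).

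This ratio differed between the barred and unbarred libraries of the Veptp arm. In unbarred UUO libraries the linear ratio of Col1a1 to Col1a2 counts ran from 0.266 to 0.568 (median 0.365, n = 8), and in barred ones from 1.17 to 1.63 (median 1.45, n = 8), with no overlap. In the ABTAA arm the unbarred and barred libraries gave 0.257 to 0.673 (median 0.430, n = 8) and 0.379 to 0.518 (median 0.424, n = 7), and the Pdgfb arm 0.318 to 0.531 (median 0.354, n = 8). Col18a1 stood apart in the same libraries. In VeWT UUO it was 221, 177, 204 and 255 CPM in unbarred and 423, 436, 411 and 474 CPM in barred libraries, and in VeKO UUO 193, 149, 129 and 123 against 447, 448, 422 and 361 CPM. Col1a2, Col3a1 and Col6a3 also split by form without overlap in VeWT UUO, in the other direction, at 415 to 552, 626 to 761 and 68.6 to 117 CPM in unbarred and 221 to 261, 278 to 475 and 44.9 to 58.6 CPM in barred libraries. In VeKO UUO these 3 overlapped between forms, and Col1a1 overlapped in both groups. The ABTAA arm split too. In IgG UUO, Col18a1 was 186 to 274 CPM in unbarred and 129 to 173 CPM in barred libraries, opposite to the Veptp arm. Col15a1 was 40.5 to 72.4 against 19.7 to 31.3 CPM there and 29.5 to 50.1 against 14.6 to 26.1 CPM in ABT UUO, and Col6a2 21.7 to 31.3 against 5.85 to 20.9 CPM in IgG UUO. Each group of UUO kidneys in these arms held 4 of each form, except ABT UUO with 4 unbarred and 3 barred. The share of all genes that split by form was not counted, so these splits cannot be read as particular to collagens. What the bar marks is not given in the sources used here.

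**Figure D5:**
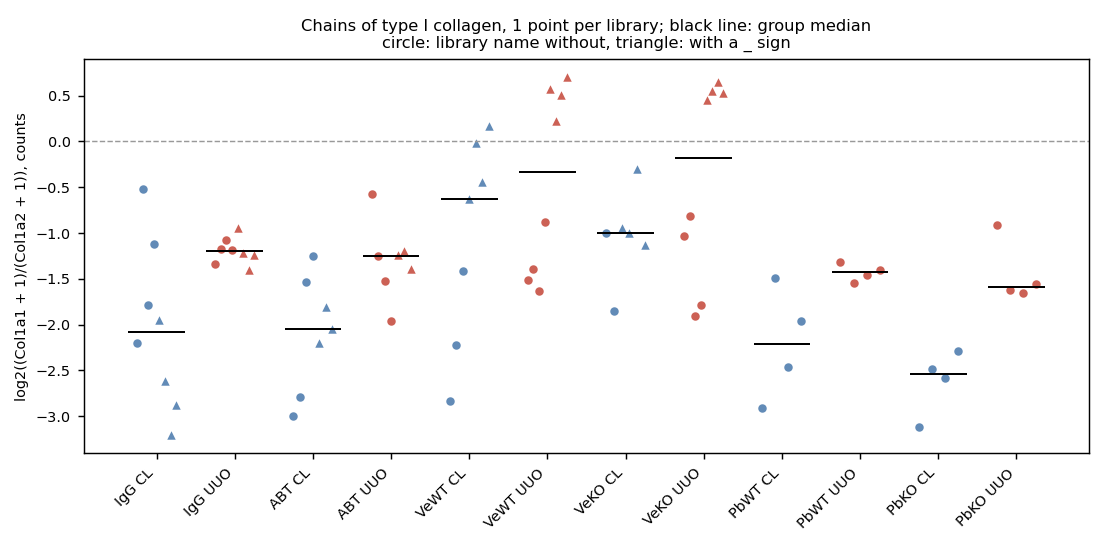
Log2 ratio of Col1a1 to Col1a2 counts, 1 count added to each (y axis), in every library of the 12 groups (x axis), with circles for unbarred and triangles for barred library names and the group median as a black line. In Veptp arm UUO kidneys the 8 triangles lie above 0 and the 8 circles below it, while in the ABTAA arm the forms overlap below 0.

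Genes that make, fold and cross-link collagen were followed as a list of 28, of which 22 were tested in the ABTAA arm. In IgG UUO against IgG CL 13 rose, against 16% of all genes, and 1 fell, with a median log2 fold change of 0.79 against 0.01 over all genes. The lowest adjusted p belonged to Sparc, a collagen-binding matricellular protein (1.94 ± 0.16, adjusted p = 1.69e-11), Lox, which cross-links fibrils (3.25 ± 0.43, adjusted p = 1.04e-07), Colgalt1, which glycosylates hydroxylysine (1.23 ± 0.17, adjusted p = 3.67e-07), and Adamts2, which trims the procollagen N-propeptide (2.86 ± 0.42, adjusted p = 9.39e-07). In PbWT 17 of 24 rose (all genes, 17.9%) and 2 fell, and in PbKO 4 rose (all genes, 3.94%). Between PbKO UUO and PbWT UUO 9 of 24 were lower (all genes, 6.58%) and 1 was higher, among the lower Adamts2 (-1.56 ± 0.30, adjusted p = 6.15e-04), Lox (-1.04 ± 0.33, adjusted p = 0.0251) and Sparc (-0.80 ± 0.20, adjusted p = 0.00524). In VeWT 13 of 25 rose (all genes, 10%) and in VeKO 3 rose (all genes, 4.47%) and 1 fell. None of the list was called between ABT and IgG UUO or between VeKO and VeWT UUO, where 0 and 6 had an unadjusted p under 0.05 by edgeR.

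Of 21 other collagens 4 were tested in the ABTAA arm, the rest being too low, and 3 rose in IgG UUO, where 16% of all genes did. These were Col8a1, a short-chain network collagen (3.24 ± 0.26, adjusted p = 4.24e-12), and the fibril-associated Col12a1 (2.00 ± 0.26, adjusted p = 2.37e-07) and Col14a1 (1.45 ± 0.26, adjusted p = 3.34e-05). Col27a1, a fibrillar collagen known from cartilage, went the other way. Its log2 fold change was -0.68 ± 0.33, adjusted p = 0.113 in IgG, and it fell in ABT (-1.54 ± 0.32, adjusted p = 3.58e-04), VeWT (-1.82 ± 0.35, adjusted p = 3.15e-04), VeKO (-1.16 ± 0.36, adjusted p = 0.0389) and PbWT mice (-1.53 ± 0.35, adjusted p = 0.00100). It was also the collagen of this list that was higher in PbKO UUO than in PbWT UUO (1.19 ± 0.36, adjusted p = 0.0202), the other 3 tested being lower. Of all 10923 genes 1315 were higher and 719 lower in this comparison.

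Receptors of collagen and enzymes of its turnover formed a list of 18, of which 11 were tested in the ABTAA arm, and 10 rose, against 16% of all genes, and 1 fell in IgG UUO. Timp1, an inhibitor of matrix metalloproteinases, had a larger change than any interstitial collagen (5.38 ± 0.43, adjusted p = 4.08e-14). Mmp14, a membrane-bound collagenase (2.57 ± 0.34, adjusted p = 1.78e-07), Mrc2, the endocytic collagen receptor (1.84 ± 0.28, adjusted p = 3.41e-06), and Ddr2, a receptor tyrosine kinase for fibrillar collagen (1.74 ± 0.28, adjusted p = 7.44e-06), followed. In PbKO UUO against PbWT UUO 8 of 11 were lower (all genes, 6.58%) and 1 was higher, the 4 named genes being lower: Timp1 (-1.32 ± 0.22, adjusted p = 8.69e-05), Mmp14 (-1.08 ± 0.34, adjusted p = 0.0261), Mrc2 (-1.26 ± 0.26, adjusted p = 0.00119) and Ddr2 (-1.36 ± 0.26, adjusted p = 6.55e-04). In VeWT 11 of 12 rose (all genes, 10%), and in VeKO 2 of 12 did (all genes, 4.47%). None was called between ABT and IgG UUO or between VeKO and VeWT UUO (1 and 4 at an unadjusted p under 0.05 by edgeR).

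Across the means of the 12 groups, the genes outside these lists whose log2 level followed the mean of the 10 collagens most closely were Col4a1 (r = 0.993), Fn1 (0.992), Tubb5 (0.990), Kdm4a (0.989) and Emilin1 (0.987), out of 9472 genes. Col4a1 encodes a basement membrane chain, Fn1 fibronectin, Emilin1 an elastic fibre glycoprotein, Tubb5 a beta-tubulin and Kdm4a a histone demethylase. Among the 10 genes themselves, r with the mean of the other 9 ran from 0.894 (Col6a1) to 0.977 (Col1a1). These correlations describe 12 points that mostly separate UUO from CL kidneys, and the groups share a sequencing run. Fn1, itself picked for following these group means, was called higher in UUO in all 6 genotypes or treatments, from 1.23 ± 0.23, adjusted p = 0.00187 in PbKO to 3.08 ± 0.31, adjusted p = 1.38e-07 in VeWT, and lower in PbKO UUO than in PbWT UUO (-1.10 ± 0.20, adjusted p = 2.54e-04). Calls of the other genes of this ranking are not given here. With medians of the groups in place of means, Col4a1 and Tubb5 stayed among the 5 closest genes.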

How the data were processed

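RNA of 75 whole mouse kidneys was measured with UMI-based full-length cDNA libraries. The authors pooled several wells per sample, sequenced them in 1 lane, aligned merged reads to mm10 with STAR 2.7.3a, removed PCR duplicates with UMI-tools 1.1.4 and deposited raw counts per gene from featureCounts (Subread 1.4.6-p5). No source used here gives the annotation or the strand setting, so reads of overlapping or antisense genes cannot be told apart. Every column was matched to its sample by title. The members and gene lists were chosen with earlier results of these data known.

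Each arm was fitted on its own with edgeR 4.0.16 (R 4.3.3): TMM, filterByExpr by group, glmQLFit and glmQLFTest on the counts, with Benjamini-Hochberg adjustment over the 9579, 11916 or 10923 genes of the ABTAA, Veptp and Pdgfb arms that passed the filter, from 32245. The authors tested with edgeR's exact test. It served as an alternative, as did DESeq2 1.42.0, other filters and scalings, 1 fit of all 12 groups, the compared groups alone, thinning to the total of the shallowest library of the arm (172827, 178137 or 337545 counts), the bar in the library name as covariate or stratum, a replicate block, and leaving out libraries. All 10 genes passed the filter in each arm. SEs were taken from the log2 fold change and the F statistic. Chain ratios were compared by exact two-sided permutation (scipy 1.17.1). Scripts were tested on simulated data. Depth limits low genes: 3 counts, the most that a count of 0 allows, were 5.91 to 17.1 CPM in the 12 cases at 0, for counting error only.

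P-values measure the spread between these libraries only. Barred ABT libraries numbered 9, 11 and 12 in CL and UUO deviated together from their group means (r = 0.387, 0.200 and 0.160, against a mean of -0.122 for different numbers), so these numbers, from the labels, were taken to pair kidneys. Deleted genes, cell type markers and sex-linked genes were named without ranking, and Havcr1 after its values were seen. Other genes named outside the 10 were the 4 of each list with the lowest adjusted p in IgG UUO against IgG CL and the 5 with the highest correlation to the mean of the 10.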

Additional observations from a re-analysis of the deposited data

Results flagged for a closer look

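Of 120 sets of 1 gene in 1 group, 6 had a library that stood apart from the rest of its group, and about 1 in 20 sets would do so by chance. Col3a1 was 271 CPM in ABT UUO replicate 1 and 460.3 to 649.9 CPM in the other 6 libraries. Col5a2 was 16.6 CPM in PbKO CL replicate 1 and 27.2 to 29.9 CPM in the other 3. The others were libraries without a count: Col5a1 was 0 in IgG CL replicate 4 (2.47 to 6.84 CPM in the rest) and 0 in VeKO UUO replicate 4 (8.26 to 28.7 CPM), and in VeWT CL replicate 3 Col6a1 was 0 (11.0 to 32.4 CPM) and Col15a1 was 0 (6.74 to 22.4 CPM). At the depth of these libraries 3 counts were 13.3, 9.45 and 16.8 CPM, above the range of the rest in IgG CL and inside it in the other cases.

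The response to UUO differed between the libraries labelled PbKO and those labelled PbWT for 3 genes, with an interaction of -1.06 on the log2 scale for Col1a2, -1.45 for Col15a1 and -0.75 for Col18a1 (PbKO minus PbWT, adjusted p = 0.0249, 0.0465 and 0.0483 by edgeR). Of the 16 single-library omissions 12 cut the count of called genes to 0 or 1, and 5 of them to 0.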

How the results depend on the processing

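Thinning the libraries of each arm to their shallowest left 6 or 7 of the 10 genes tested per arm, and the counts called higher in UUO became 6 (IgG), 5 (ABT), 5 (VeWT), 1 (VeKO), 6 (PbWT) and 3 (PbKO). The count of genes lower in PbKO UUO than PbWT UUO became 4, and of the Pdgfb interaction 0. A mean count of at least 20 left 6 genes in the ABTAA arm, and 6 were called in IgG and 6 in ABT. With all 12 groups in 1 fit the counts were 9 (VeKO UUO minus CL), 3 (PbKO UUO minus CL), 0 (PbKO minus PbWT UUO) and 0 (Pdgfb interaction). The VeKO count was 8 by DESeq2, 2 by the exact test, 1 with the compared groups alone, 9 with the name form as covariate, 9 in barred and 0 in unbarred libraries, and 2 without numbers 3, 4, 7 and 8. Leaving out 1 library gave 9 to 10 (ABT), 2 to 8 (VeKO), 9 to 10 (PbWT), 3 to 6 (PbKO), 5 to 10 (PbKO minus PbWT UUO), 0 to 4 (Pdgfb interaction) and 0 to 3 called chain ratios. Chain ratios called were 5 of 24 within name forms and 0 of 19 with at least 10 counts of both chains, where Col1a1 to Col1a2 in VeWT was -0.20. That filter left barred libraries alone in VeWT CL. Counts of the other comparisons stayed within 1.5 times. The causes were not tested, beyond fewer genes tested after thinning and filtering.

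Signs reversed for Col5a2 in VeKO UUO minus CL (0.87 in unbarred libraries, 0.072 without numbers 3, 4, 7 and 8, and -0.23 to 0.011 when 1 library was left out) and for Col15a1 there (-0.30 in unbarred libraries). In ABT minus IgG UUO they reversed for Col18a1 (0.17 in barred libraries) and for Col6a2 and Col5a2 (-0.21 and 0.0048 in unbarred libraries). Veptp numbers were not taken to pair kidneys: r of same-numbered libraries was 0.0582 to 0.426, against a mean of -0.0333 for different numbers. Of the 16 libraries 10 correlated best with their own number. With these numbers as a replicate block 9 genes were called in VeKO UUO minus CL, and 9 in the same libraries without the block. VeKO minus VeWT UUO then rested on all of the numbers together, 3, 4, 7 and 8 among them. It gave 0.34 (Col1a1), 0.26 (Col1a2), 0.72 (Col3a1) and 0.44 (Col6a3), none called. In the ABT libraries the block changed no call: 8 of 9 genes tested were called with and without it.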
